A study of Ovis aries with 8 samples.

Results

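The insulin-like growth factor (IGF) axis of fetal growth was followed in pancreatic islets of near-term sheep fetuses. Its 10 members here are 2 ligands (IGF1, IGF2), 2 receptors (IGF1R, IGF2R) and 6 binding proteins (IGFBP2 to IGFBP7). A member was the row of the expression table that carries its gene symbol, which gave 10 of 25000 rows. Of these, 8 carried the exact symbol, while IGFBP5 and IGFBP6 stand in the table as IGFBP-5 and IGFBP-6 and were matched through RefSeq synonyms.

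The series compared 4 fetuses infused intravenously with norepinephrine for 7 days with 4 control fetuses. The rate rose in steps, from 1 µg/min on day 1 to 2 µg/min on days 2 to 4 and to 4 µg/min on days 5 to 7. Control fetuses were given the diluent, ascorbic acid in saline, by the same route. All were singletons of Columbia-Rambouillet crossbred ewes, and their islets were isolated, picked by hand and frozen before RNA was extracted. Transcript abundance was given as FPKM, fragments per length of transcript relative to the size of the library, so levels can be compared between genes. Values after ± are SDs over the 4 animals of a group unless an SE is named. Differences are norepinephrine minus control on the log2(FPKM + 1) scale, which understates the change of low genes.

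Animals infused with norepinephrine weighed 3.1, 3.7, 2.8 and 2.9 kg, and controls 5, 3.6, 4.2 and 4 kg. The mean weights of 3.125 ± 0.403 and 4.20 ± 0.589 kg differed by -1.075 kg, for which an exact permutation test gave a two-sided p of 0.0571. The infused fetuses were 138.25 ± 0.957 days and the controls 139.75 ± 0.5 days of gestation (exact permutation p = 0.0857). Control 2 and norepinephrine 3 were female and the other 6 fetuses male. The animal numbers start with 09 (control 2 and norepinephrine 1, 3 and 4) or with 10 (controls 1, 3 and 4 and norepinephrine 2), and the labels do not say what this marks. The summed FPKM of a library was 981583 to 1112624 in the 09 set and 768021 to 796149 in the 10 set. The 09 fetuses weighed 2.8 to 3.6 kg and the 10 fetuses 3.7 to 5 kg, so these sets also part the fetuses completely by weight. Treatment differences of single genes are therefore also given within the number sets or with the set in the model. Inside 09 control 2 is the only control, and inside 10 norepinephrine 2 is the only infused fetus. Every difference within a set thus rests on the same single animal on one side.

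Islet identity was checked with marker genes. Glucagon (GCG, 703 to 4108 FPKM), somatostatin (SST, 113 to 1858 FPKM) and the beta-cell transcription factor PDX1 (211 to 317 FPKM) were present in all 8 libraries. IAPP, the amyloid hormone of beta cells, was listed at 0 in all 8, and insulin was not analysed here.

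IGF1 and IGF2 are secreted peptides related to insulin, and IGF2 is the dominant growth factor of fetal life. Both act through the tyrosine kinase receptor IGF1R, whereas IGF2R, which also carries lysosomal enzymes, takes up IGF2 for degradation. The binding proteins hold the ligands outside the cell and either restrain or prolong their action, and in the islet this axis is known for its role in beta-cell growth and survival.

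IGF2 was the highest member, at a mean of 443.2 FPKM over the 8 animals, and IGF1 the lowest, at 0.529 FPKM. IGF2 stood at rank 265 of the 13252 genes with a mean of at least 1 FPKM. IGFBP7 followed at 336.7 FPKM (rank 357), IGFBP3 at 191.2 FPKM (rank 659) and IGFBP5 at 108.5 FPKM (rank 1251). The middle of the order was held by IGFBP4 at 42.9 FPKM, IGF2R at 41.3 FPKM, IGFBP2 at 32.3 FPKM, IGF1R at 18.3 FPKM and IGFBP6 at 11.1 FPKM. Neighbours in this order kept it in 7 of 8 animals for IGF2 over IGFBP7, IGFBP7 over IGFBP3, IGFBP3 over IGFBP5 and IGF1R over IGFBP6. The order held in all 8 for IGFBP5 over IGFBP4 and for IGFBP6 over IGF1. The order was kept in only 5 or 6 of 8 for IGFBP4 over IGF2R, IGF2R over IGFBP2 and IGFBP2 over IGF1R. These pairs were not separated beyond the spread between animals. The islet libraries thus held far more IGF2 than IGF1 transcript, by a ratio of 442 to 1655 in single animals.

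**Figure D1:**
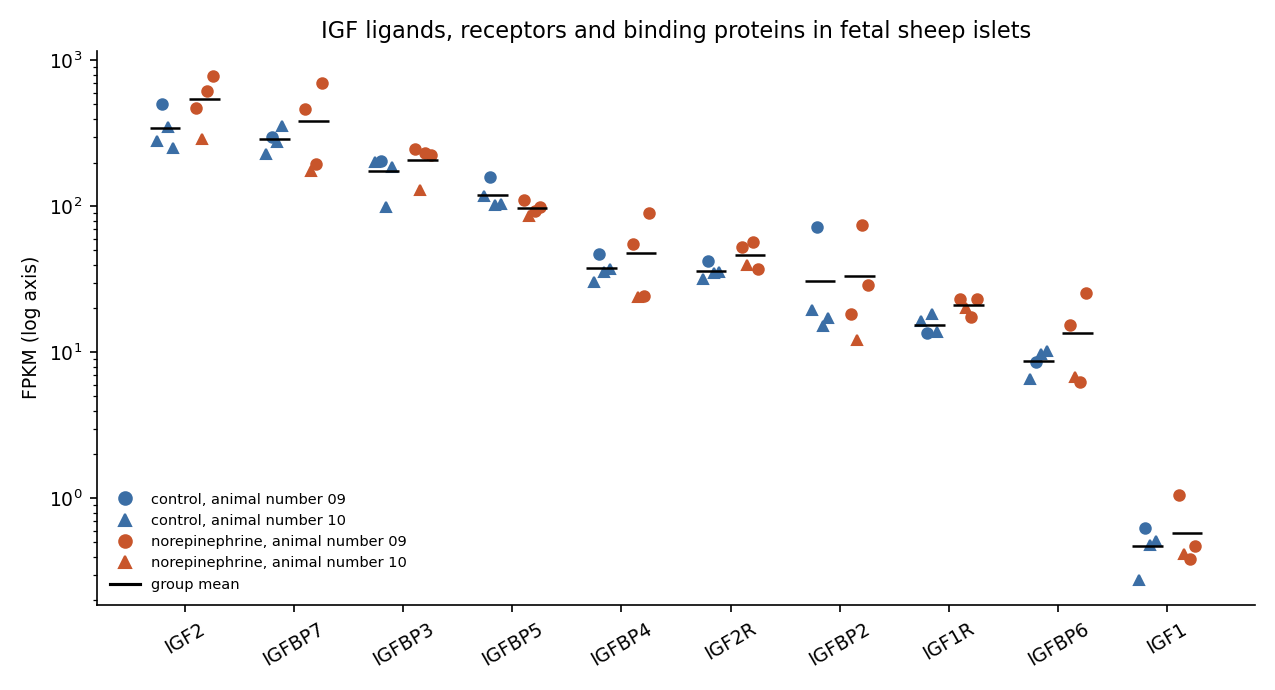
FPKM (log axis) of the 10 members in each of the 8 fetuses, with blue for controls, orange for norepinephrine, circles for animals numbered 09, triangles for those numbered 10 and a bar for the group mean. The groups of all 10 members overlap, and IGF2 lies between 470.1 and 783.4 FPKM in the circles and between 251.6 and 352.1 FPKM in the triangles.

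In the comparison of treatment groups no member passed the test. By limma at an adjusted p under 0.05, 0 of the 9 tested members differed, as did 0 of all 13252 genes (0%). IGF1, below the abundance filter, was tested alone. At an unadjusted p under 0.05 the limma fit held 1 of the 9 members, IGF1R, beside 7.36% of all genes (975, of which 479 higher and 496 lower). The groups overlapped for all 10 members, while 4.23% of all tested genes had groups that did not overlap. In bulk RNA, fewer cells of a type and less RNA per cell cannot be told apart.

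Of the ligands, IGF2 read 470.1, 291.4, 618.4 and 783.4 FPKM in norepinephrine animals 1 to 4, against 278.8, 500.04, 352.1 and 251.6 FPKM in controls 1 to 4. Norepinephrine 3 and 4 lay above every control, and norepinephrine 2 lay among the lower controls. The means were 540.8 ± 209.8 and 345.6 ± 111.4 FPKM, a log2 difference of 0.61 with an SE of 0.32 and a 95% interval from -0.12 to 1.33 (limma unadjusted p = 0.0918, adjusted p = 0.698). Within animals numbered 09 the difference was 0.29, and within those numbered 10 it was 0.00077. With the number set in the model it was 0.14 (SE 0.20, limma adjusted p = 0.838). The upper value in controls, 500.04 FPKM, is that of the only control numbered 09.

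IGF2 lies on chromosome 21 of the sheep build Oar_v3.1, from 48655290 to 48681619, and 2 further rows of the table, known only by Ensembl identifiers, have the same coordinates. In the RefSeq order of genes (assembly ARS-UI_Ramb_v3.0) insulin stands between TH and IGF2. How the reads of this locus were shared among the rows is not stated in any label or header, so the level of IGF2 is uncertain to that extent. The row ENSOARG00000003662 read 228.3, 145.5, 265.1 and 151.0 FPKM with norepinephrine and 139.4, 102.6, 127.4 and 98.4 FPKM in controls. Its groups did not overlap, as in 1.88% of all tested genes in this direction, and its log2 difference was 0.72 (SE 0.22, limma unadjusted p = 0.00946, adjusted p = 0.544). The exact permutation p of 0.0286 is the smallest that 4 against 4 animals can give. Within the number sets the difference was 1.02 in 09 and 0.27 in 10. This row was looked at because it shares the locus, after its values were known. The row ENSOARG00000003707 read 336.6, 224.1, 497.5 and 717.4 FPKM with norepinephrine and 226.8, 603.8, 224.3 and 180.8 FPKM in controls, with overlapping groups (log2 difference 0.57, exact permutation p = 0.314), and its difference was -0.29 within 09 and 0.10 within 10. Summed over the 3 rows, the locus held 1182 ± 429.5 FPKM with norepinephrine and 771.5 ± 298.7 FPKM in controls, also overlapping (log2 difference 0.61, exact permutation p = 0.171), with 0.14 within 09 and 0.087 within 10.

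**Figure D2:**
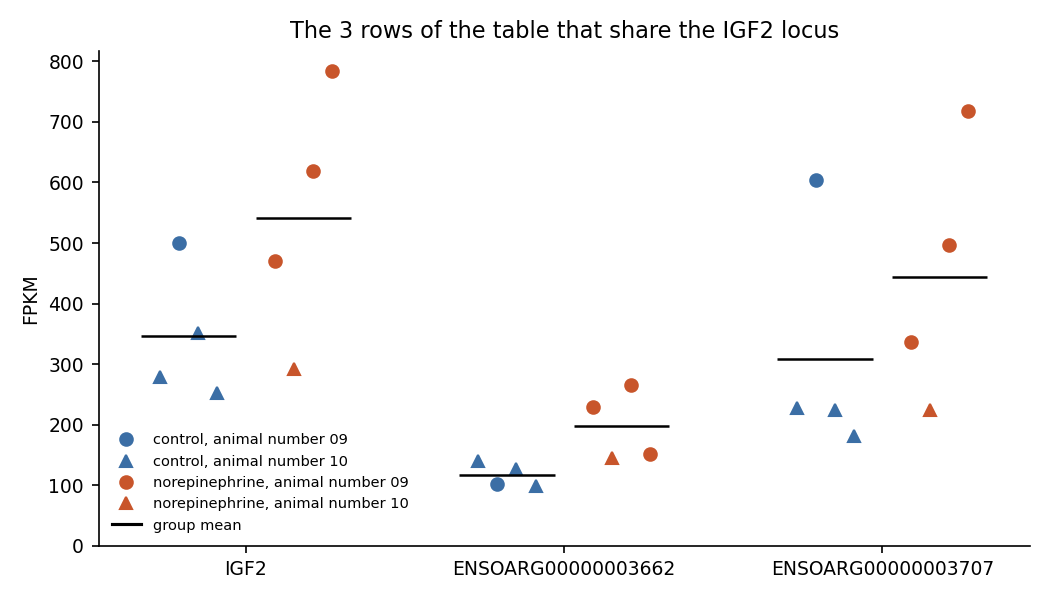
FPKM of the 3 rows that share the IGF2 locus in each fetus (colours for treatment, circles for animals numbered 09, triangles for 10, bars for group means). IGF2 and ENSOARG00000003707 are high in control 2 (500.04 and 603.8 FPKM), whereas ENSOARG00000003662 reads 102.6 FPKM there and lies above all controls in the 4 norepinephrine animals (145.5 to 265.1 FPKM).

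IGF1, on chromosome 3 from 171268400 to 171327752, was low in every animal. It read 1.06, 0.413, 0.384 and 0.473 FPKM with norepinephrine and 0.278, 0.631, 0.478 and 0.512 FPKM in controls. Only norepinephrine 1 exceeded 1 FPKM. The means of 0.583 ± 0.322 and 0.475 ± 0.147 FPKM did not differ beyond the spread between animals (log2 difference 0.09, exact permutation test, two-sided p = 0.714). Within the number sets the difference had the opposite sign, -0.016 in 09 and -0.0056 in 10.

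Of the receptors, IGF1R transduces the signal of both ligands and lies on chromosome 18 from 7159507 to 7219744. IGF1R read 23.1, 20.2, 17.6 and 23.1 FPKM with norepinephrine and 16.4, 13.5, 18.3 and 13.9 FPKM in controls. Norepinephrine 1, 2 and 4 lay above the highest control, and norepinephrine 3 just under it. The means were 21.0 ± 2.66 and 15.5 ± 2.27 FPKM, a log2 difference of 0.42 (SE 0.15, 95% interval 0.08 to 0.75) with a limma unadjusted p of 0.0197 and an adjusted p of 0.593. The difference was positive inside both number sets, 0.61 in 09 and 0.31 in 10, each with a single animal on one side. With the set in the model the difference was 0.46 (limma unadjusted p = 0.0208, adjusted p = 0.383). With equal library totals it was 0.27 (95% interval -0.23 to 0.76, limma unadjusted p = 0.255). The limma unadjusted p was also above 0.05 without control 4 (0.0568), without norepinephrine 1 (0.0571) and with gestational age as covariate (0.183).

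IGF2R, the receptor that clears IGF2, lies on chromosome 8 from 82874886 to 82959397. It read 52.4, 39.6, 56.6 and 37.0 FPKM with norepinephrine and 32.0, 42.5, 35.0 and 35.6 FPKM in controls. Norepinephrine 1 and 3 were the highest of the 8, followed by control 2. The means were 46.4 ± 9.56 and 36.3 ± 4.47 FPKM, a log2 difference of 0.33 (SE 0.17, limma unadjusted p = 0.0740, adjusted p = 0.681), and 0.19 with the number set in the model. In single animals there were 1.60 to 3.22 IGF2R transcripts for each of IGF1R on the per-length scale. This ratio was 2.26 ± 0.694 with norepinephrine and 2.39 ± 0.589 in controls.

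Of the binding proteins, IGFBP3, the main carrier of IGFs in adult blood, lies on chromosome 4 from 76176920 to 76178860. It read 249.4, 129.6, 232.6 and 223.5 FPKM with norepinephrine and 201.8, 206.1, 99.7 and 187.0 FPKM in controls. A single low animal stood in each group, norepinephrine 2 and control 3. The means of 208.8 ± 53.9 and 173.7 ± 50.0 FPKM gave 0.28 on the log2 scale (SE 0.28, limma adjusted p = 0.824).

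IGFBP5, the most conserved of the family and a protein that binds extracellular matrix, lies on chromosome 2 from 217650010 to 217669182. It was the only tested member with a lower mean after norepinephrine. It read 110.5, 86.0, 93.1 and 98.4 FPKM with norepinephrine and 117.3, 157.9, 101.5 and 103.4 FPKM in controls. Norepinephrine 2, 3 and 4 lay under every control, and norepinephrine 1 lay between controls. The means were 97.0 ± 10.3 and 120.0 ± 26.2 FPKM, a log2 difference of -0.29 (SE 0.16, 95% interval -0.65 to 0.08, limma unadjusted p = 0.110, adjusted p = 0.715). Inside the number sets the difference was -0.65 in 09 and -0.31 in 10. With the set in the model it was -0.48 (SE 0.12, limma unadjusted p = 0.00391, adjusted p = 0.309). At an unadjusted p under 0.05 that model held IGF1R and IGFBP5, 2 of the 9 members, beside 11.7% of all genes. Without the 2 female fetuses, one of which is control 2, the IGFBP5 difference was -0.13 (limma adjusted p = 0.654).

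IGFBP2, a binding protein abundant in fetal tissues, lies beside IGFBP5 on chromosome 2 from 217607092 to 217636866. It read 18.3, 12.2, 74.7 and 28.9 FPKM with norepinephrine and 19.4, 72.2, 15.2 and 17.2 FPKM in controls. The high animals, norepinephrine 3 and control 2, are the 2 females, and the 6 males lay between 12.2 and 28.9 FPKM with a median of 17.7 FPKM. The treatment means of 33.5 ± 28.3 and 31.0 ± 27.5 FPKM did not differ beyond the spread between animals (log2 difference 0.10, SE 0.61, limma adjusted p = 0.973), and the difference was -1.06 within animals numbered 09 and -0.46 within those numbered 10.

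The sex pattern was noticed in the values and then fitted. With treatment in the model, IGFBP2 was 1.98 higher in females on the log2 scale (SE 0.27, limma unadjusted p = 7.97e-05), but its adjusted p was 0.0939 and missed the threshold, which 0.0453% of all genes passed. Both females lay above all males in 9.77% of all tested genes. Both are also numbered 09, where the males, norepinephrine 1 and 4, read 18.3 and 28.9 FPKM. With 2 females, 1 in each group, sex cannot be told apart from other features of these animals.

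IGFBP4, IGFBP6 and IGFBP7 had their highest values in the same 2 animals, norepinephrine 1 and 4. IGFBP7, a secreted relative that binds IGFs weakly and is abundant in vessel walls and stroma, lies on chromosome 6 from 72423581 to 72437525. It read 465.3, 174.6, 195.7 and 698.0 FPKM with norepinephrine and 227.7, 300.2, 275.0 and 357.0 FPKM in controls. Norepinephrine 1 and 4 lay above every control, and norepinephrine 2 and 3 lay under every control. The means were 383.4 ± 248.0 and 290.0 ± 53.9 FPKM (log2 difference 0.18, SE 0.42, limma adjusted p = 0.927).

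IGFBP4, an inhibitor of IGF action that is cut by the protease PAPP-A, lies on chromosome 11 from 40250021 to 40260382. It read 55.1, 23.9, 24.3 and 89.6 FPKM with norepinephrine and 30.4, 47.5, 35.6 and 37.1 FPKM in controls, with the same animals at the top and bottom. Its log2 difference was 0.15 (SE 0.39, limma adjusted p = 0.938). IGFBP6, which prefers IGF2 over IGF1, lies on chromosome 3 from 133213326 to 133216912. It read 15.4, 6.75, 6.26 and 25.6 FPKM with norepinephrine and 6.54, 8.60, 9.71 and 10.3 FPKM in controls, and its difference was 0.37 with an SE of 0.39 (limma adjusted p = 0.829). All 3 differences were positive within the 09 set (0.06 for IGFBP4, 0.61 for IGFBP6, 0.41 for IGFBP7) and negative within the 10 set (-0.50, -0.32 and -0.69). Whether a member's treatment difference depends on the number set or on sex cannot be decided here. Each treatment group holds a single female, and each number set a single animal of one of the treatments.

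**Figure D3:**
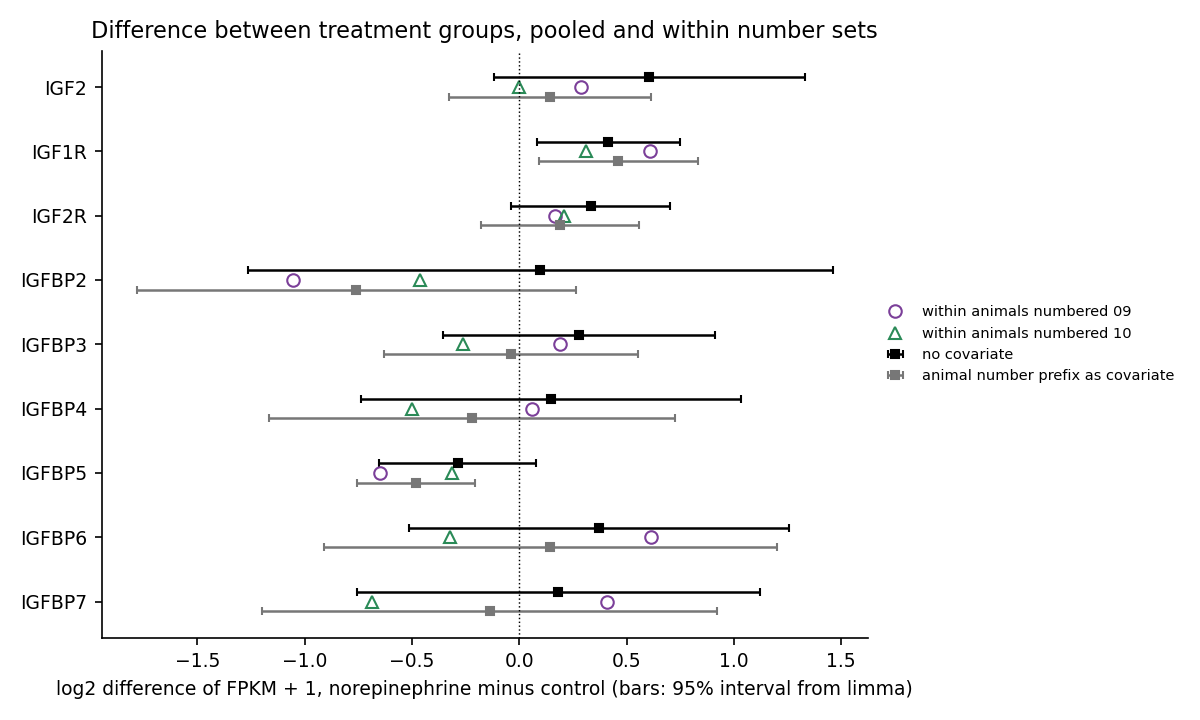
Treatment difference of the 9 tested members on the log2(FPKM + 1) scale, norepinephrine minus control: black squares without a covariate and grey squares with the number set in the model, each with its 95% interval from limma, and open symbols for the difference within animals numbered 09 (circles) or 10 (triangles). The intervals of IGF1R (0.08 to 0.75) exclude 0 in both models plotted, before adjustment, IGFBP5 moves from -0.29 to -0.48 with the set in the model, and open symbols of IGFBP3, IGFBP4, IGFBP6 and IGFBP7 lie on opposite sides of 0.

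The makeup of the binding proteins was set mainly by IGFBP7, IGFBP3 and IGFBP5. IGFBP7 held 45.6 ± 12.5% of the summed FPKM of the 6 binding proteins with norepinephrine and 44.3 ± 7.45% in controls. IGFBP3 held 28.4 ± 7.40% and 26.1 ± 6.08%, and IGFBP5 held 13.8 ± 4.81% and 18.2 ± 2.49%. The summed binding proteins stood at 1.48 ± 0.380 times the IGF2 level with norepinephrine and at 2.03 ± 0.609 times in controls, with single animals from 1.01 to 2.83. These ratios are descriptions and were not tested.

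Between the number sets, 2 of the 9 members differed by the test. With treatment in the model, IGF2 was lower in animals numbered 10, with -0.92 on the log2 scale (SE 0.20, limma adjusted p = 0.0251), and so was IGFBP2, with -1.71 (SE 0.44, limma adjusted p = 0.0377). The test called 16.5% of all genes between the sets, and 10.4% as lower in 10, so 2 of 9 is close to the background. IGFBP5 (-0.39, limma adjusted p = 0.0614) and IGFBP3 (-0.63, limma adjusted p = 0.125) missed the threshold. IGF2 was 470.1 to 783.4 FPKM in the 09 animals and 251.6 to 352.1 FPKM in the 10 animals, with no overlap. IGFBP3 did not overlap either, with 206.1 to 249.4 FPKM in 09 and 99.7 to 201.8 FPKM in 10, and all 09 animals stood above all 10 animals in 14.8% of tested genes.

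Both calls depended on the scaling and on single animals. With every library scaled to the same summed FPKM, the IGF2 difference was -0.47 (limma adjusted p = 0.0900) and that of IGFBP2 -1.28 (adjusted p = 0.0554). With each library scaled by the median ratio of its genes to their means, both calls stood. IGF2 was then at -0.84 (limma adjusted p = 0.0308) and IGFBP2 at -1.64 (adjusted p = 0.0435). The IGF2 call was lost without control 1 (limma adjusted p = 0.0560), control 2 (0.188), control 4 (0.0513) or norepinephrine 2 (0.148). The IGFBP2 call was lost without control 1 (limma adjusted p = 0.0720), control 2 (0.321), control 3 (0.0769), control 4 (0.0710) or norepinephrine 2 (0.107), and with no abundance filter (0.0630). With sex in the model the limma adjusted p was 0.0991 for IGF2 and 0.143 for IGFBP2, and with fetal weight in the model 0.368 and 0.418.

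Fetal weight was related to member levels over the 8 fetuses by exact permutation tests, adjusted over all 13252 genes. No member and no gene passed after adjustment. Before adjustment, 2 of the 9 members had an exact p under 0.05, IGF2 and IGF2R, both with more transcript in lighter fetuses. Of all genes 17.6% reached that p, 9.85% with a negative sign.

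IGF2 had a Pearson r of -0.81 with fetal weight (exact permutation p = 0.0165, adjusted 0.238) and a Spearman rho of -0.83 (exact permutation p = 0.0154, adjusted 0.183). An r at least as negative was found in 4.06% of tested genes. Without the fetuses farthest from the median weight, control 1 and norepinephrine 3, r was -0.81 (exact permutation p = 0.0556). With treatment means removed it was -0.72 (exact permutation p = 0.0538), and with the means of the number sets removed -0.30 (exact permutation p = 0.457). Of all genes 15.2% had an exact p under 0.05 with treatment means removed, 8.39% with a negative sign, and 5.57% with set means removed, 1.96% with a negative sign. Each set holds 4 fetuses, too few for a correlation of its own.

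IGF2R had an r of -0.77 (exact permutation p = 0.0232, adjusted 0.246) and a rho of -0.86 (exact permutation p = 0.0107, adjusted 0.176). It was -0.55 without control 1 and norepinephrine 3, so the size of the relation rested in part on them. With treatment means removed it was -0.59, with set means removed -0.47, and with equal library totals -0.21. Without norepinephrine 4 the r of IGF2R was -0.95 (exact permutation p = 1.98e-04, adjusted 0.292). IGFBP3 had an r of -0.45 and a rho of -0.76 (exact permutation p = 0.261 and 0.0368, adjusted 0.522 and 0.207), and its r was 0.32 with set means removed and -0.79 without control 1. By rho 20.8% of all genes had an exact p under 0.05, 12.0% with a negative sign.

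IGFBP5 differed in sign from the others, with an r of 0.23 (exact permutation p = 0.591, adjusted 0.783) and a rho of 0.36 (exact permutation p = 0.389). With equal library totals its r was 0.86 (exact permutation p = 0.00680, adjusted 0.158), a setting in which 3000 of the 3280 genes at an exact p under 0.05 were positive. With set means removed its r was 0.84 (exact permutation p = 0.00347, adjusted 0.828), and 99.1% of tested genes had an r no higher than this. With treatment means removed the sign was negative (r = -0.44). In each set the norepinephrine fetuses were the lighter ones, so weight and treatment cannot be told apart inside the sets. The other tested members, IGF1R, IGFBP2, IGFBP4, IGFBP6 and IGFBP7, had r from -0.47 to -0.37 (exact permutation p from 0.235 to 0.368) and rho from -0.60 to -0.14 (exact permutation p from 0.132 to 0.752). Single animals decided the size of several of these. Without norepinephrine 3, r was -0.72 for IGFBP4, -0.77 for IGFBP6, -0.69 for IGFBP7 and -0.26 for IGFBP2, and without norepinephrine 4 it was -0.10, -0.22 and -0.12 for the first 3. None of these passed after adjustment over all genes.

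**Figure D4:**
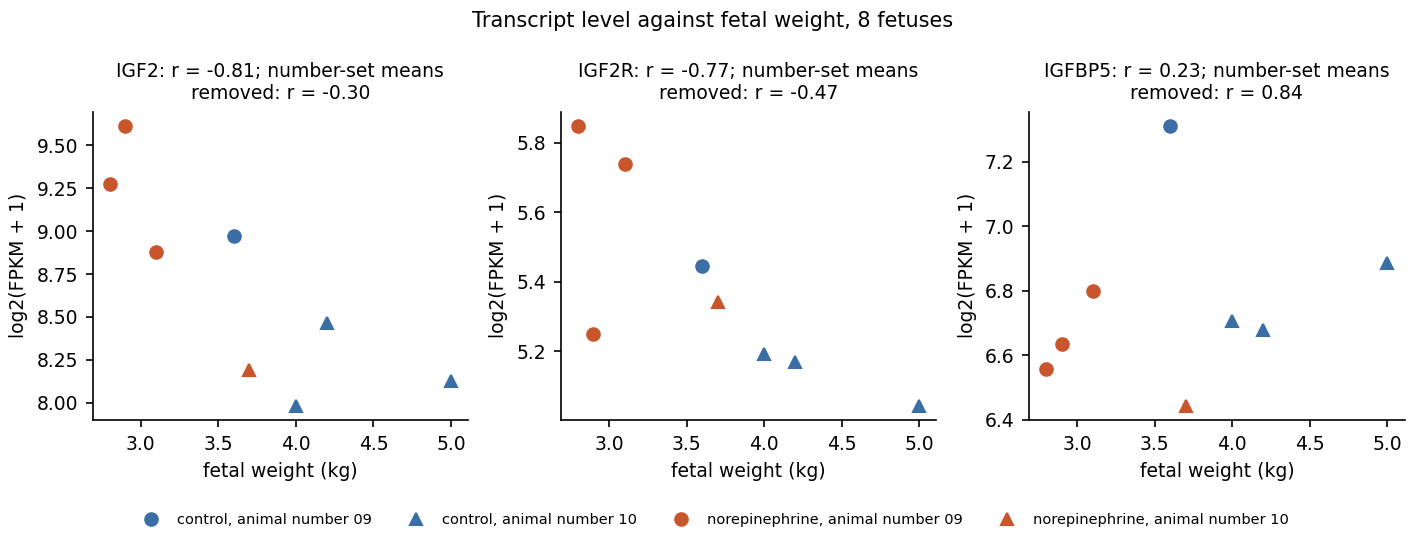
Level of IGF2, IGF2R and IGFBP5 on the log2(FPKM + 1) scale against fetal weight in kg, 1 point per fetus (blue controls, orange norepinephrine, circles 09, triangles 10). Circles lie at 2.8 to 3.6 kg and triangles at 3.7 to 5 kg, and r is -0.81 for IGF2 but -0.30 once the set means are removed.

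The shared pattern of IGFBP4, IGFBP6 and IGFBP7 was compared with markers of non-endocrine cells that hand-picked islets can carry. IGFBP7 had an r of 0.97 with IGFBP4 and of 0.97 with IGFBP6 over the 8 fetuses (exact permutation p = 3.72e-04 and 3.47e-04, rho 0.98 and 0.90, adjusted p = 0.0986 for both r over 13251 genes). IGFBP4 and IGFBP6 had an r of 0.94 (exact permutation p = 9.42e-04, rho 0.86), and of 0.74 without the 2 fetuses farthest from the median of IGFBP4. Without the 2 fetuses farthest from the median of IGFBP7, its r was 0.90 with IGFBP4 and 0.96 with IGFBP6. With set means removed the 3 values were 0.96, 0.96 and 0.93. No pair passed after adjustment.

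Of 14 mesenchymal and stellate markers 12 were found, none at 0. Their summed FPKM was 2596, 1466, 1794 and 4284 with norepinephrine and 2143, 3152, 2637 and 2603 in controls. The collagen COL1A1 alone ran from 40.8 FPKM in norepinephrine 2 to 412.3 FPKM in norepinephrine 4. Across fetuses the mean log2 level of this list had an r of 0.94 with IGFBP7 and of 0.93 with IGFBP6 (exact permutation p = 7.69e-04 and 9.67e-04, rho 0.88 and 0.86, adjusted p = 0.0580 for both r over 120 relations of members and lists). Without the 2 fetuses farthest from the median they were 0.80 and 0.82. With IGFBP4 its r was 0.91 (exact permutation p = 0.00312, rho 0.81, adjusted p = 0.106), and 0.67 without those 2 fetuses. The endothelial list (11 of 12 found, none at 0) summed to 331, 179, 217 and 465 FPKM with norepinephrine and 286, 389, 272 and 337 FPKM in controls. Its r was 0.88 with IGFBP4 and 0.85 with IGFBP7 (exact permutation p = 0.00355 and 0.00828, rho 0.90 and 0.88, adjusted p = 0.106 and 0.166), and 0.81 and 0.71 without the 2 fetuses farthest from the median. With IGFBP6 the r of the endothelial list was 0.71 (exact permutation p = 0.0441, rho 0.69, adjusted p = 0.385), and 0.61 without those 2 fetuses. The macrophage and leukocyte list (8 of 10 found, 5 tested) had an r of 0.79 with IGFBP7 and of 0.72 with IGFBP4 (exact permutation p = 0.0196 and 0.0394, rho 0.86 and 0.83, adjusted p = 0.262 and 0.385). Without the 2 fetuses farthest from the median these were 0.61 and 0.48. With IGFBP6 its r was 0.63 (exact permutation p = 0.0883). The acinar list (9 of 16 found, none at 0) summed to 132 to 958 FPKM with norepinephrine and to 114 to 156 FPKM in controls, with the high values in norepinephrine 1, 3 and 4. All 7 tested acinar genes had a higher mean with norepinephrine, as did 52.6% of all tested genes. The median log2 difference of the 7 was 1.25, and 0.54 with the number set in the model. CPB1 and CELA1 hardly moved with the set in the model (2.08 to 2.00 and 1.04 to 1.00). CPA1, CEL and CLPS fell to 0.52 to 0.68, GP2 from 0.80 to 0.093 and CTRC from 0.17 to -0.56. Only CPB1 had groups that did not overlap (limma unadjusted p = 3.19e-04, adjusted p = 0.352). In this direction 1.88% of all tested genes did not overlap. None of the 7 passed the adjusted limma test. The acinar list had an r of 0.84 with IGF2R (exact permutation p = 0.0115, rho 0.64, adjusted p = 0.190), but 0.18 without the 2 fetuses farthest from the median. With IGF2 its r was 0.75 (exact permutation p = 0.0332, rho 0.69, adjusted p = 0.385), 0.88 without those 2 fetuses and 0.048 with set means removed. With IGFBP3 its r was 0.72 and its rho 0.95 (exact permutation p = 0.0430 and 0.00114, adjusted 0.385 and 0.137), with an r of 0.76 without those 2 fetuses and of 0.35 with set means removed. The duct and epithelial list (7 of 10 found, 6 tested) summed to 1341 to 1992 FPKM with norepinephrine and to 1446 to 1681 FPKM in controls. Of the 6 tested, 3 had a higher and 3 a lower mean with norepinephrine, and none passed the adjusted limma test. Its r with IGFBP2 was 0.67 (exact permutation p = 0.0449, rho 0.71, adjusted p = 0.385), and 0.28 without the 2 fetuses farthest from the median. The erythroid list (4 of 8 found, 1 tested) was near the floor. It summed to 0.226 to 2.28 FPKM with norepinephrine and to 2.39 to 8.55 FPKM in controls. Its r with IGF2R was -0.84 (exact permutation p = 0.0127, rho -0.83, adjusted p = 0.190). That r was -0.89 without the 2 fetuses farthest from the median and -0.67 with set means removed. No relation of a member to a marker list passed after adjustment over the 120. Whether cells of these types account for any part of the member levels was not tested.

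**Figure D5:**
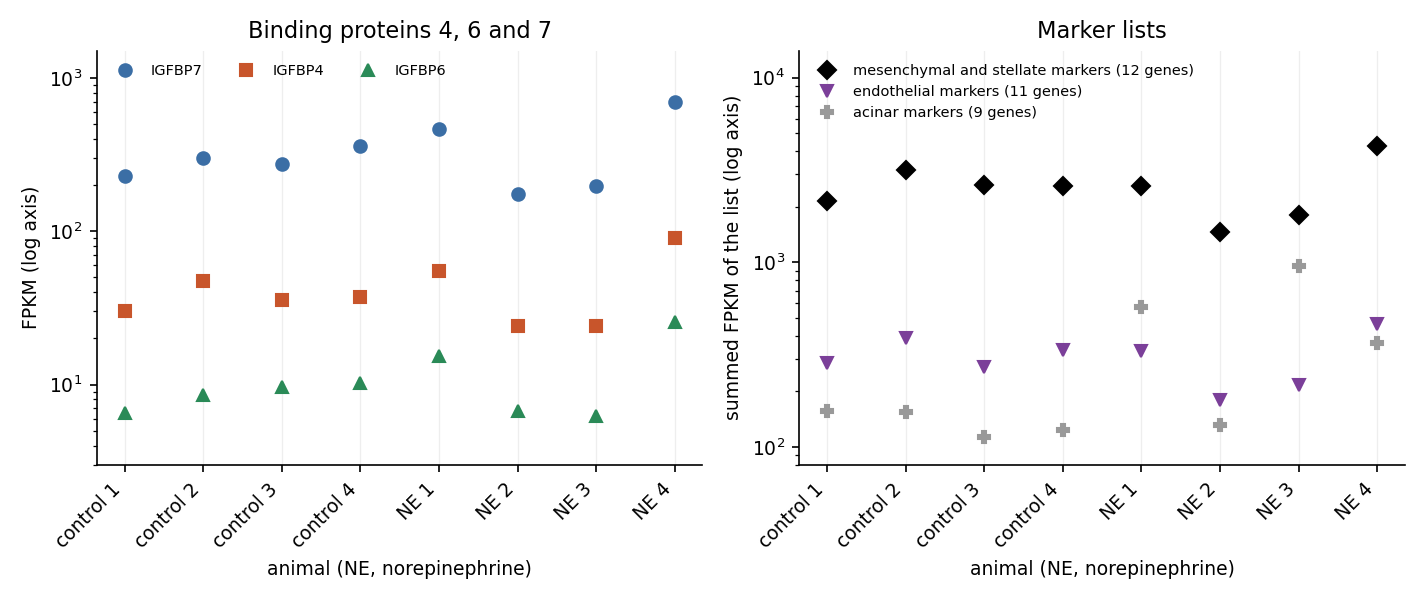
Left, FPKM (log axis) of IGFBP7, IGFBP4 and IGFBP6 in each fetus. Right, summed FPKM (log axis) of the mesenchymal, endothelial and acinar marker lists in the same fetuses. Norepinephrine 4 is highest for all 3 binding proteins and for the mesenchymal (4284 FPKM) and endothelial (465 FPKM) lists, and norepinephrine 2 is lowest for IGFBP7 and for both lists.

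Other genes of the axis were read from 2 lists. Of 22 accessory and related genes (proteases, RNA-binding proteins, stanniocalcins and the like) 19 were found and 13 tested. None passed the adjusted limma test, and at an unadjusted p under 0.05 the 13 held 0 higher and 3 lower, where 7.36% of all genes (479 higher, 496 lower) reached that p. The median log2 difference was -0.27, against 0.017 over all tested genes, with a higher mean for 5 and a lower one for 8. STC1, a stanniocalcin that inhibits the protease PAPP-A, averaged 79.1 ± 11.3 FPKM with norepinephrine and 100.1 ± 9.93 FPKM in controls (log2 difference -0.34, limma unadjusted p = 0.0314, adjusted p = 0.639). Its relative STC2 averaged 10.4 ± 2.32 and 14.3 ± 2.53 FPKM (-0.43, limma unadjusted p = 0.0474). IGF2BP3, a protein that binds IGF2 messenger RNA, averaged 7.56 ± 1.54 and 11.1 ± 2.36 FPKM (-0.49, limma unadjusted p = 0.0374). The most abundant were HTRA1, a secreted serine protease, at 204.5 ± 92.8 and 174.6 ± 39.7 FPKM, and M6PR, the smaller mannose 6-phosphate receptor, at 165.4 ± 21.0 and 161.8 ± 13.99 FPKM. With the number set in the model the difference was -0.32 for STC1, -0.46 for STC2, -0.32 for IGF2BP3, -0.17 for HTRA1 and -0.096 for M6PR, the last 2 opposite in sign to the 0.15 and 0.03 without it.

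Of 36 genes of IGF receptor signalling 33 were found and 32 tested, and none passed the adjusted limma test. At an unadjusted p under 0.05 there were 1 higher and 2 lower among the 32, a share near the 7.36% of all genes, and the median log2 difference was -0.05. IRS4, an insulin receptor substrate, averaged 15.05 ± 4.81 FPKM with norepinephrine and 25.1 ± 6.06 FPKM in controls (log2 difference -0.73, SE 0.27, limma unadjusted p = 0.0225, adjusted p = 0.597). EIF4EBP1, a brake on translation released by mTOR, averaged 135.9 ± 39.5 and 90.5 ± 21.5 FPKM (0.56, limma unadjusted p = 0.0407, 0.26 with the number set in the model). FOXO1, a transcription factor held out of the nucleus by AKT, averaged 33.6 ± 5.83 and 43.6 ± 7.14 FPKM (-0.37, limma unadjusted p = 0.0498). RHEB, an activator of mTOR, and GRB2, an adaptor, were the most abundant, at 249.1 ± 47.6 and 178.9 ± 17.0 FPKM with norepinephrine and 219.5 ± 38.1 and 185.8 ± 19.004 FPKM in controls. With the number set in the model the difference was -0.56 for IRS4, -0.27 for FOXO1, -0.16 for GRB2 and -0.043 for RHEB, the last opposite in sign to the 0.18 without it.

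The genes whose levels followed each member most closely over the 8 fetuses were taken by Pearson r of the log2 values. For IGF2 they were ENSOARG00000016160, PPP1R1A and BCAP29, each at 0.98. IGF1R was followed by CAMKK1 (0.95), FNIP2 (0.94) and IMPG2 (0.93). For IGF2R they were the merged row of RALA and YAE1D1 (0.98), FAF2 (0.96) and ENSOARG00000012390 (0.94). IGFBP2 was followed by WBP11, AKAP8 and C16orf70 (each 0.98), and IGFBP3 by SERTM1 (0.95), PVRL2 (0.94) and ENSOARG00000000114 (0.93). IGFBP4 was followed by SIPA1, AGFG1 and RGS19 (each 0.98). IGFBP5 had HHAT (0.97), SEZ6L2 (0.97) and PMEL (0.96) as its closest rows, and IGFBP6 had LTBP4 (0.99), FERMT3 (0.98) and DPM1 (0.98). IGFBP7 was followed by TM4SF18 (0.99), a merged row that holds PIEZO1 (0.99) and AGFG1 (0.98). The number of tested genes with an r above 0.9 ran from 10 for IGF1R and 11 for IGFBP3 to 166 for IGFBP7 and 226 for IGF2. With 8 fetuses these values carry no test, and the means of the number sets were not removed from them.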

How the data were processed

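The authors deposited 1 table of FPKM values, 1 per gene and animal, per the file headers. The submitters' processing notes name TopHat2 2.0.1, Cufflinks 2.1.1, Cuffdiff and the genome build Oar_v3.1. Per the labels' protocols, a TruSeq RNA kit was used and read in pairs of 100 bp. Annotation, filters and strand handling were not stated there, so overlapping and antisense genes may share reads. The table holds no counts, so the absolute depth behind a value is unknown and no counting interval was computed. Columns were matched to animals by number (0 columns left out), and starts were raised by 1 to count from 1.

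Rows with a mean of at least 1 FPKM (13252 of 25000) were analysed as log2(FPKM + 1) with limma 3.58.1 in R 4.3.3 (lmFit, eBayes with trend), two-sided, with Benjamini-Hochberg adjustment over all of them and a threshold of 0.05. Relations to weight used all 40320 pairings of the 8 animals (576 where set or treatment means were removed) in Python 3.11.15 with numpy 2.4.6. Members and gene lists were chosen with earlier results of these data known. The genes named are all members, the 3 lowest unadjusted p-values and 2 highest means of each list where none passed, and the 3 closest genes per member. The tests of sex, of the fits without females and of settings for the number sets were chosen after seeing the data.

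The 2 groups share replicate numbers but no animals. Same-numbered animals had correlations of their deviations of -0.16, -0.38, -0.03 and 0.09, so the numbers did not pair them. On simulated data (5 sets of 13252 genes for the treatment comparison) the test recovered 62.6% of 2-fold and 94.8% of 4-fold changes, with 9 false calls on average. The changes were planted in 100 of the more abundant genes per fold. Errors were independent between genes, and the number sets were not simulated. Recovery for single members, some of them with a wide spread, was not measured. Alternatives covered pseudocounts, filters, scalings, covariates, a replicate block and each animal left out.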

Additional observations from a re-analysis of the deposited data

Results flagged for a closer look

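In groups of 4 animals a value was singled out where its gap to the nearest other animal passed Dixon's 95% limit of 0.829 of the group's range. This held in 6 of 48 groups. For a single group chance gives about 1 in 20, but these groups are not independent. Shares, sums and ratios reuse the same FPKM values, and gestational age is in whole days with ties. The count of 6 therefore cannot be set against chance. IGF1 read 1.06 FPKM in norepinephrine 1, with the nearest norepinephrine animal at 0.473 FPKM. IGFBP2 read 72.2 FPKM in control 2, with the nearest control at 19.4 FPKM. The share of IGFBP2 in the summed binding proteins was 9.11% in control 2 (nearest 3.22%) and 11.9% in norepinephrine 3 (nearest 2.81%), the 2 females. The row ENSOARG00000003707 of the IGF2 locus read 603.8 FPKM in control 2, with the nearest control at 226.8 FPKM. Gestational age was 139 days in control 2 and 140 days in the other controls. Outside the members, the lowest norepinephrine animal of ENSOARG00000003662, at 145.5 FPKM, stood above the highest control, at 139.4 FPKM.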

How the results depend on the processing

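No member passed the adjusted treatment test under any of 21 other settings. Of 189 such values, 165 kept their direction and 24 reversed, with a lowest limma adjusted p of 0.285. The number of genes called between treatments was 0, and 1 with equal library totals (NNAT), with the number set as covariate (NNAT) and without the 2 females (U1), genes named after their values were seen. It ran from 0 to 2 with 1 animal left out (TTC28-AS1_3 and ENSOARG00000000798 without norepinephrine 1). At an unadjusted p under 0.05 the 975 genes became 587 (without control 3) to 2185 (without control 2), 1552 with the number set as covariate, 1618 without females and 646 with the replicate block. The block changed no adjusted call of a member, but the unadjusted p of IGF1R was 0.0618 with it. Equal library totals moved the median of all genes from 0.017 to -0.12 and the share of positive differences from 52.6% to 30.4%.

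Treatment differences reversed with the number set as covariate for IGFBP2 (-0.76), IGFBP3 (-0.037), IGFBP4 (-0.22) and IGFBP7 (-0.14), and with equal library totals for IGFBP2 (-0.050) and IGFBP4 (-0.0023). With gestational age as covariate they were -0.13 for IGF2, -0.43 for IGFBP2, -0.10 for IGFBP3, -1.12 for IGFBP4, -0.72 for IGFBP6 and -1.01 for IGFBP7. With fetal weight they were -0.21, -1.43, -0.052, -0.47, -0.14 and -0.46 in the same order. With 1 animal left out, IGFBP2 ran from -0.39 (without norepinephrine 3) to 0.60, IGFBP4 from -0.22 and IGFBP7 from -0.19 (both without norepinephrine 4) to 0.40 and 0.48. IGF2 was 0.40 without norepinephrine 4, 0.80 without control 2 and 0.87 without norepinephrine 2 (limma adjusted p = 0.285 and 0.387 for the last 2). IGFBP6 was 0.0089 without norepinephrine 4, 0.25 without control 1, 0.24 without norepinephrine 1, 0.60 without norepinephrine 2 and 0.63 without norepinephrine 3. IGFBP3 was 0.031 without control 3, 0.18 without norepinephrine 1 and 0.49 without norepinephrine 2, and IGFBP5 -0.15 without control 2. IGF1R, IGF2R and IGFBP5 kept their direction under all 21, but not their size. The difference ran from 0.27 to 0.57 for IGF1R, from 0.034 to 0.43 for IGF2R and from -0.57 to -0.13 for IGFBP5.

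Of 171 correlations with weight 7 reversed. These were IGF1R with equal totals (0.11) and treatment means removed (0.39), IGFBP2, IGFBP3 and IGFBP4 with set means removed (0.31, 0.32 and 0.13), and IGFBP5 with treatment means removed (-0.44) and without the 2 fetuses farthest in weight (-0.046). The 2331 genes at an exact p under 0.05 became 1505 (without norepinephrine 4) to 2841 with 1 animal left out and 738 with set means removed. With the replicate block the count was 0, since its smallest possible p is 0.125. With equal library totals 3000 of 3280 such genes were positive, against 1026 of 2331.

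The 2187 genes called between number sets became 18 (without control 2) to 2275 with 1 animal left out, 4363 with equal totals (4127 higher in 10, against 803), 24 with sex and 1 (SNORA41) with weight as covariate. IGF1R reversed with sex (-0.17) and with weight (-0.0581) as covariate and ran from -0.0582 (without control 2) to 0.24 with 1 animal left out. IGF2R (0.15) and IGFBP5 (0.061) reversed with equal totals, and IGFBP6 ran from -0.92 to 0.016 (without norepinephrine 2). IGF1R passed with equal totals (0.52, limma adjusted p = 0.0472) and IGF2R without norepinephrine 4 (-0.38, limma adjusted p = 0.0434). Only IGF2 and IGFBP2 had a call to lose, and over 17 other settings for each it was lost 16 times between them. The weight difference between groups ran from -1.275 to -0.808 kg with 1 animal left out. The cause of these changes was not tested.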
